A study of Mus musculus with 18 samples.

Results

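The genotype difference of the tail ratio was examined in 12 of the 18 arrays of the series, 2 from each of 6 mice. The mice were 6 weeks old and were either controls (CTRL, n = 3) or carried the TgCPEB4∆4 transgene (Tg, n = 3), which encodes a CPEB4 protein without the microexon that neurons splice into it. The sources used here name neither the promoter that drives the transgene nor any allele that the controls share with it. RNA came from cortex and striatum combined, a mixture of cell types, and was passed over poly(U)-agarose. The fraction labelled WASH left the column at 25% formamide and was enriched for short poly(A) tails, and the fraction labelled ELUTED left at 90% formamide and was enriched for long tails. The members were all WASH and ELUTED arrays, chosen by their labels and not by a measured value. In each mouse the log2 WASH value of a probe set was subtracted from its log2 ELUTED value to give the tail ratio. The mean of the CTRL ratios was then subtracted from the mean of the Tg ratios, so that a value above 0 means that an mRNA lay further toward the long-tail fraction in Tg mice. This was done with the ratios as measured and again after the ratios of each mouse had been scaled to the same SD.

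CPEB proteins bind cytoplasmic polyadenylation elements in the 3' untranslated regions of mRNAs and recruit enzymes that shorten or lengthen the poly(A) tail. In neurons this is one of the ways in which translation of stored mRNAs is regulated at synapses. Poly(U) chromatography separates mRNAs by how tightly their tails anneal to the resin, so it gives a relative position between fractions and not a tail length in nucleotides. Messages of ribosomal proteins and other abundant housekeeping proteins are commonly short-tailed.

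The arrays were not of equal quality. On each array the highest of 23 nonspecific control probe sets was taken as background. It lay at log2 5.43 to 6.03 on the WASH arrays and at 5.53 to 6.29 on 5 of the ELUTED arrays. On the ELUTED array of CTRL mouse 1 it lay at 7.30, and 15987 of 27022 probe sets exceeded it there, against 24451 to 26987 on the other ELUTED arrays. Genes are therefore named, outside the gene lists and the CPEB family, only where they stood above background on all 12 arrays, which held for 7488 of 11974 genes. In total RNA the cortical markers Slc17a7 and Tbr1, the striatal markers Ppp1r1b, Drd1 and Penk, and the glial markers Gfap, Mbp and Cx3cr1 stood above background in 6 of 6 mice. The cortical marker Neurod6 did so in 0 of 6, as did Gabra6 and Cbln3 of cerebellar granule cells and Hcrt and Pmch of the hypothalamus. Other markers from outside cortex and striatum were present: Tcf7l2, of the thalamus, stood above background in 6 of 6 mice (8.82 to 9.39), a choroid plexus marker also in 6 of 6 (8.81 to 12.0), and Th, of dopamine neurons, in 1 of 6.

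The tail ratios of most CTRL mice were spread more widely than those of Tg mice, but the genotypes overlapped. The SD of the ratio over all probe sets was 1.19, 0.59 and 0.86 in CTRL mice 1, 2 and 3, and 0.61, 0.62 and 0.39 in Tg mice 1, 2 and 3. CTRL mouse 2 thus lay below 2 of the 3 Tg mice, and Tg mouse 3 lay below all other mice. The mean SD was 0.88 ± 0.30 in CTRL and 0.54 ± 0.13 in Tg mice (SD, n = 3), a difference of -0.34 (exact two-sided permutation test, p = 0.3, where 0.1 is the smallest p that 3 mice against 3 allow). A ratio above 1, a factor of 2 toward the long-tail fraction, was read by 11.9%, 3.08% and 5.86% of probe sets in CTRL mice and by 4.17%, 3.05% and 0.970% in Tg mice. A ratio below -1 was read by 24.8%, 6.98% and 14.8% in CTRL mice and by 6.84%, 8.01% and 1.01% in Tg mice. The excess in CTRL mice 1 and 3 was thus larger on the short-tail side.

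**Figure D1:**
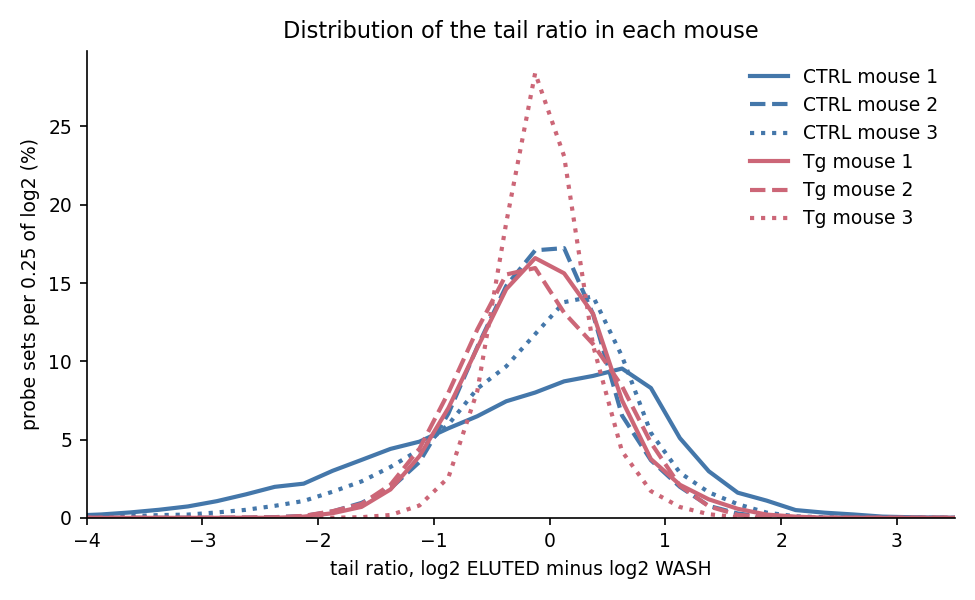
Share of the 27022 probe sets (vertical axis, percent per 0.25 of log2) at each tail ratio (horizontal axis, log2 ELUTED minus log2 WASH), 1 line per mouse, CTRL in blue and Tg in red. CTRL mouse 1 is the widest (SD 1.19) and Tg mouse 3 the narrowest (SD 0.39), while CTRL mouse 2 and Tg mice 1 and 2 (0.59 to 0.62) almost coincide.

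When each mouse was set against the mean of the other 5, the slope was 1.76, 0.83 and 1.24 in CTRL mice and 0.82, 0.84 and 0.42 in Tg mice, a difference of -0.58 (exact two-sided permutation test, p = 0.2, where 0.1 is the smallest possible). The ratios of all mice ran in the same order of genes, with correlations across probe sets from 0.61 to 0.92 between mice. CTRL mouse 2 correlated at 0.91 and 0.92 with Tg mice 1 and 2, and at 0.82 and 0.89 with CTRL mice 1 and 3. These correlations describe probe sets of the same arrays and were not tested. The Actb 3' minus 5' signal difference on the ELUTED arrays lay furthest from 0 in the CTRL mice with the widest spread. It was -1.08, -0.66 and -0.96 in CTRL mice and -0.74, -0.75 and -0.69 in Tg mice. On the WASH arrays it lay furthest from 0 in Tg mouse 3 (-0.66), the mouse with the narrowest spread. The same difference for Gapdh on the ELUTED arrays was 0.15, -0.18 and -0.12 in CTRL and -0.15, -0.14 and -0.13 in Tg mice. The part of these signals in the spread was not tested.

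No single mRNA passed the test for a genotype difference of the tail ratio. With limma and Benjamini-Hochberg adjustment over 27022 probe sets, 0 had an adjusted p under 0.05 in either direction (0% called), both as measured (lowest adjusted p = 0.37) and scaled (lowest adjusted p = 0.30). Without adjustment, 2413 probe sets with a value above 0 (8.93%) and 1208 with a value below 0 (4.47%) had p under 0.05 as measured. With 1 mouse left out these counts ran from 693 and 465 without Tg mouse 3 to 4715 and 2874 without CTRL mouse 2. After scaling these numbers were 1808 (6.69%) and 1620 (6%), so that the share above 0 went from 66.6% to 52.7%. With the ratios of each mouse centred on their median it was 77.6% as measured and 74.8% scaled. With quantile normalization within each fraction it was 38.4% scaled. The 3 Tg ratios lay wholly above the 3 CTRL ratios for 2611 probe sets (9.66%) and wholly below them for 2317 (8.57%), and after scaling for 2171 (8.03%) and 2437 (9.02%). Of all probe sets 72.8% kept the sign of their difference under scaling, and 7363 did not.

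The count of 0 depended on CTRL mouse 2. Without it, 1958 probe sets passed with a value above 0 and 529 with a value below 0 as measured (limma, adjusted p under 0.05), and 48 and 4 when scaled. Without any 1 of the other 5 mice no probe set passed as measured, and 1 passed scaled, without Tg mouse 3. Weights fitted to the mice gave 2840 and 1769 as measured, and 1 and 3 when scaled. These weights were 0.24, 0.45 and 3.64 for CTRL mice and 2.22, 1.65 and 0.69 for Tg mice. As measured, the control mean with weights thus rested mostly on CTRL mouse 3. The weights were fitted to the same ratios that were tested.

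The 8 genes with the smallest p and a value above 0 as measured lay toward the short-tail fraction in every mouse, and less far toward it in Tg mice. For Ndufb7, an accessory subunit of respiratory complex I, the tail ratio was -1.93, -2.03 and -2.32 in CTRL mice and -0.93, -0.97 and -0.88 in Tg mice. All Tg mice lay above all CTRL mice, and the difference was 1.17 ± 0.18 (SE, n = 3; limma adjusted p = 0.37). Its WASH values were 10.5, 9.97 and 10.3 in CTRL and 9.07, 9.84 and 10.6 in Tg mice, and its ELUTED values 8.58, 7.94 and 8.00 in CTRL and 8.14, 8.87 and 9.69 in Tg mice. The ELUTED values therefore overlapped, and Tg mouse 1 read the lowest of the 6 in WASH. After scaling the Ndufb7 ratios overlapped too, and the difference was 0.57 ± 0.29 (adjusted p = 0.43). A second Ndufb7 probe set read 0.60 as measured and 0.07 scaled.

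Ribosomal protein mRNAs read alike. For Rpl31, of the large subunit, the ratio was -2.09, -1.74 and -2.26 in CTRL and -0.29, -0.91 and -0.89 in Tg mice, a difference of 1.33 ± 0.24 (limma adjusted p = 0.37), and 0.73 ± 0.31 scaled (0.36). A dimmer Rpl31 probe set read 0.48 as measured and -0.03 scaled. The pseudogene Rpl31-ps12 read 1.60 ± 0.27, but its probes may share sequence with Rpl31, so the 2 are not separate observations. Rps15, of the small subunit, read -1.77, -1.09 and -2.04 in CTRL and -0.17, -0.45 and -0.50 in Tg mice, a difference of 1.26 ± 0.26. For Rpl36 the difference was 1.50 ± 0.32, and for Mrpl52, of the mitochondrial ribosome, 1.39 ± 0.28. In these 4 genes every Tg ratio was above every CTRL ratio as measured.

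Atpif1, the protein that inhibits ATP synthase when it runs backward, had the smallest p after scaling among genes with a value above 0. Its ratio was -2.46, -1.30 and -2.88 in CTRL mice and -0.51, -0.61 and -0.34 in Tg mice, a difference of 1.73 ± 0.37 (limma adjusted p = 0.37). Scaled, it was -1.47, -1.56 and -2.38 against -0.59, -0.70 and -0.62, a difference of 1.17 ± 0.23 (adjusted p = 0.30). The genotypes stayed apart in both forms, although a second Atpif1 probe set read -0.35 as measured. Ndufv3, of complex I, read -2.86, -1.68 and -3.33 in CTRL and -0.89, -1.02 and -0.65 in Tg mice, a difference of 1.77 ± 0.38, and 1.04 ± 0.24 scaled.

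**Figure D2:**
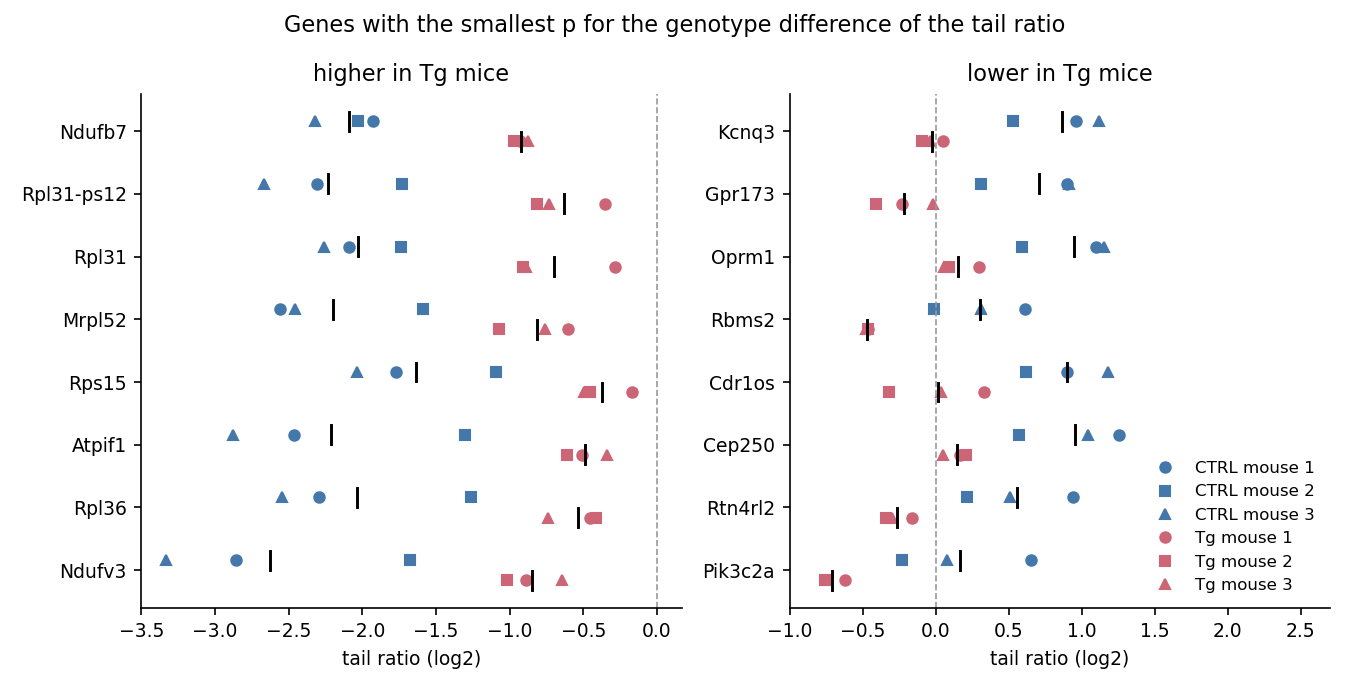
Tail ratio (horizontal axis, log2) of the 8 genes with the smallest p and a value above 0 (left) and below 0 (right), 1 point per mouse, CTRL in blue and Tg in red, with the mean of each genotype as a black bar. In all 16 genes the 3 Tg mice lie on 1 side of the 3 CTRL mice, and at left CTRL mouse 2 (square) is often the control nearest to the Tg mice, as for Atpif1 (-1.30).

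Among the other genes with the smallest p after scaling were Rpl37a and Rps20, both of the cytosolic ribosome, the translation-associated protein Tma7, the nucleotide hydrolase Hint1, the acyl-CoA binding protein Dbi, and Ccdc141. Their scaled differences were 1.04 ± 0.24, 1.10 ± 0.27, 0.75 ± 0.18, 0.82 ± 0.20, 1.21 ± 0.30 and 0.67 ± 0.16 (limma adjusted p = 0.30 for each). Ccdc141 stood apart from the rest because its ratio was above 0 in every mouse, at 0.83, 0.41 and 0.43 in CTRL and 1.01, 0.92 and 0.62 in Tg mice. As measured the genotypes overlapped for it (0.29 ± 0.20), and scaling separated them. A further Ccdc141 probe set read -0.19 as measured. Of the others, a second Hint1 and a dimmer Rpl37a probe set, both above background on all 12 arrays, read -0.01 and 0.11 scaled.

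The whole groups to which these genes belong are described by counts beside those over all genes. Of all 11974 genes 52.6% had a value above 0 as measured and 48.1% scaled, and the median difference was 0.02 and -0.01. The Tg ratios lay wholly above the CTRL ratios for 11.9% of genes as measured and 8.44% scaled, and 10.9% and 6.62% had a value above 0 with an unadjusted p under 0.05. In none of the groups did a member pass the test over all probe sets.

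Of 69 ribosomal protein genes 67 had a value above 0, with a median of 1.05. The Tg ratios lay wholly above the CTRL ratios for 55 of them. The median ratio of the group was -1.77, -1.11 and -2.23 in CTRL and -0.61, -0.77 and -0.65 in Tg mice. Each Tg mouse was thus above each CTRL mouse, and CTRL mouse 2 came nearest. After scaling the medians were -1.06, -1.33 and -1.84 against -0.70, -0.88 and -1.19, so that Tg mouse 3 lay below CTRL mouse 1. The median difference was then 0.52, with 60 genes above 0 and 20 without overlap. Leaving out 1 mouse at a time moved the measured median between 0.81 and 1.31, and the scaled median between 0.26 without CTRL mouse 3 and 0.76 without Tg mouse 3.

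All 70 nuclear-encoded genes of oxidative phosphorylation had a value above 0, with a median of 1.12, and 62 did not overlap. Their median ratio was -2.22, -1.21 and -2.31 in CTRL and -0.89, -0.85 and -0.62 in Tg mice. Scaled it was -1.33, -1.45 and -1.91 against -1.03, -0.97 and -1.14, and the order of the genotypes was kept, with 67 genes above 0, a median difference of 0.52 and 35 without overlap. Among the members with the smallest p were the ATP synthase subunit Atp5j2 (1.42 ± 0.32; 0.79 ± 0.27 scaled) and the complex I subunit Ndufa7 (0.91 ± 0.21; 0.30 ± 0.22 scaled). Without CTRL mouse 3 the scaled median was 0.28.

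All 38 proteasome genes had a value above 0 as well, with a median of 1.03, and 23 did not overlap. The median ratio of these genes was -2.24, -0.82 and -1.86 in CTRL and -0.60, -0.62 and -0.45 in Tg mice, so that CTRL mouse 2 lay close to the Tg mice. Scaled, CTRL mouse 2 read -0.99 against -0.69, -0.71 and -0.83 in Tg mice, and the median difference was 0.40 with 34 genes above 0. The catalytic subunit Psmb6 read -3.17, -1.76 and -2.80 in CTRL and -1.48, -1.50 and -0.90 in Tg mice (1.29 ± 0.36; 0.42 ± 0.18 scaled). The ATPase subunit Psmc2 read -2.50, -0.85 and -2.19 against -0.52, -0.64 and -0.36 (1.34 ± 0.39; 0.78 ± 0.21 scaled). The assembly chaperone Pomp and the subunit Psma2 differed by 1.44 ± 0.43 and 1.46 ± 0.41. Without CTRL mouse 1 the median of the group was 0.70, and without CTRL mouse 2 it was 1.46. The scaled medians without CTRL mouse 3 and with equal slopes were 0.24 and 0.17, and 0.26 over members above background on all 12 arrays.

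As measured, calls were made only without CTRL mouse 2, the control that correlated best with each Tg mouse, or with mouse weights. The counts below describe those settings and are no separate test of these 3 groups. Without CTRL mouse 2, 1099 of 11974 genes passed with a value above 0 as measured (9.18%; limma, adjusted p under 0.05), among them 60 of 70 genes of oxidative phosphorylation, 26 of 38 of the proteasome and 47 of 69 of ribosomal proteins. With mouse weights, which put most of the control weight on CTRL mouse 3, 1567 genes passed (13.1%), among them 68, 29 and 61 of these groups. With mouse weights and scaling, 0 of 11974 genes passed with a value above 0. After scaling without CTRL mouse 2, 28 genes passed (0.234%), with 0, 5 and 1 of these groups. The 5 proteasome genes were Psma1, Psma3, Psma6, Psmb7 and Psmd7, chosen here after their values were seen, and with all 6 mice they did not pass.

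**Figure D3:**
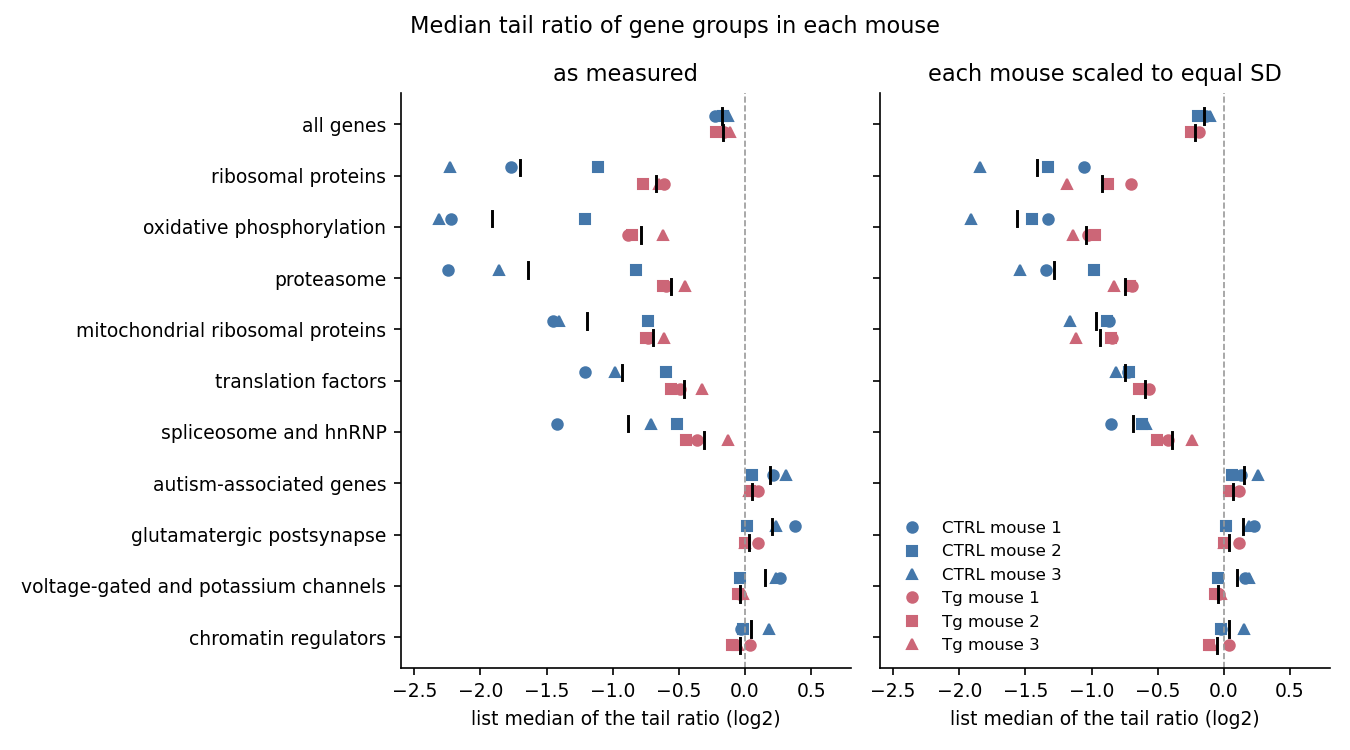
Median tail ratio of gene groups (horizontal axis, log2), as measured (left) and after scaling (right), 1 point per mouse, CTRL in blue and Tg in red, with the mean of each genotype as a black bar. Ribosomal, oxidative phosphorylation and proteasome genes lie furthest from 0 in CTRL mice and furthest apart between genotypes as measured, and scaling brings the genotypes closer, while the groups near 0 move little.

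The difference in these groups sat in the long-tail fraction. Between the genotypes their median differed by 1.08, 1.10 and 1.14 in ELUTED (ribosomal proteins, oxidative phosphorylation and proteasome) and by 0.06, 0.01 and 0.04 in WASH. Over all probe sets the SD of the genotype difference was 0.48 in ELUTED and 0.23 in WASH, and 1431 and 94 probe sets differed by more than 1. The ELUTED part was the larger of the 2 for 72.8% of all probe sets. It was so for 97.5% of those with an unadjusted p under 0.05 and a value above 0, and for 75.2% of those with a value below 0. For Dbi the genotypes differed by 2.17 in ELUTED and 0.28 in WASH, and for Rps20 by 1.82 and -0.06. The ELUTED arrays are also those on which background and the Actb signal differed most between mice, and their part in this was not tested.

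**Figure D4:**
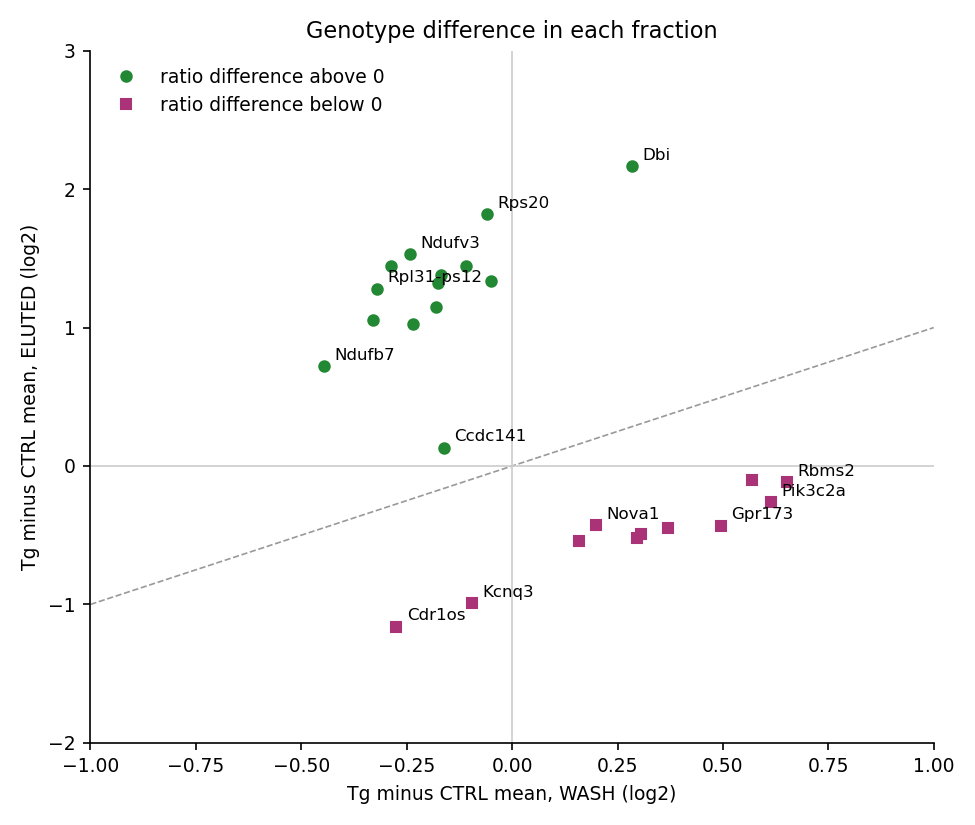
Tg minus CTRL mean in WASH (horizontal axis, log2) and in ELUTED (vertical axis, log2) for the genes with the smallest p as measured or scaled, with values above 0 as green circles and below 0 as purple squares. The tail ratio difference is the distance above or below the dashed line of equality: green genes other than Ccdc141 lie at 0.72 to 2.17 in ELUTED and at -0.45 to 0.28 in WASH, whereas purple genes reach from Kcnq3 and Cdr1os (-0.99 and -1.16 in ELUTED) to Rbms2 (0.65 in WASH).

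Other groups of the same kind read smaller differences. Of 73 mitochondrial ribosomal protein genes 66 had a value above 0, with a median of 0.46, and 24 did not overlap. Scaled, 46 were above 0, the median was 0.11, and it was -0.05 when slopes were made equal in place of SDs. Mrpl42, Mrpl41 and Mrpl21 differed by 1.34 ± 0.33, 1.02 ± 0.28 and 0.88 ± 0.24 as measured and by 0.63 ± 0.21, 0.41 ± 0.19 and 0.33 ± 0.21 scaled. Of 32 translation factor genes 29 had a value above 0 (median 0.52; 0.17 scaled, with 20 above 0). The initiation factor subunits Eif2s2 and Eif3h differed by 0.91 ± 0.25 and 1.07 ± 0.35. Eif4a1, an RNA helicase of initiation, read -1.84, -0.23 and -1.24 in CTRL and -0.02, -0.06 and -0.16 in Tg mice, so that CTRL mouse 2 was close to the Tg mice. Of 41 spliceosome and hnRNP genes 34 had a value above 0 (median 0.56; 0.25 scaled, with 28 above 0), among them the core small nuclear ribonucleoprotein Snrpd2 (0.91 ± 0.21) and Hnrnpk (0.80 ± 0.28). Over members above background on all 12 arrays the splicing median was 0.25 as measured and 0.15 scaled. Over such members it was 0.43 and 0.08 for translation factors, and 0.41 and 0.04 for mitochondrial ribosomal proteins. Without CTRL mouse 1 the splicing median was 0.25 as measured, and that of translation factors was 0.30.

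The 8 genes with the smallest p and a value below 0 as measured had a mean ratio above 0 in CTRL mice and a lower one in Tg mice. Kcnq3, a subunit of the M-type potassium channel, read 0.96, 0.53 and 1.12 in CTRL and 0.05, -0.09 and -0.04 in Tg mice. The genotypes did not overlap, and the difference was -0.90 ± 0.20 (limma adjusted p = 0.37), or -0.75 ± 0.17 scaled (0.30). Its ELUTED values were 9.97, 9.37 and 10.1 in CTRL and 8.52, 9.07 and 8.87 in Tg mice, and its WASH values 9.01, 8.84 and 8.97 against 8.47, 9.16 and 8.91. The genotypes were thus apart in ELUTED and overlapped in WASH.

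Oprm1, the mu opioid receptor, read 1.10, 0.59 and 1.15 in CTRL and 0.30, 0.09 and 0.06 in Tg mice (-0.80 ± 0.21; -0.59 ± 0.18 scaled), and a second Oprm1 probe set read -0.81. The orphan receptor Gpr173 read 0.90, 0.31 and 0.92 in CTRL and -0.23, -0.41 and -0.01 in Tg mice (-0.93 ± 0.23; -0.81 ± 0.19 scaled). Cdr1os, a noncoding RNA antisense to Cdr1, read 0.90, 0.62 and 1.18 against 0.33, -0.32 and 0.04 (-0.89 ± 0.23). The centrosomal protein Cep250 differed by -0.81 ± 0.22. In each of these 4 genes all Tg mice lay below all CTRL mice, as measured and scaled.

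For some genes of this kind the difference sat in the short-tail fraction. Rbms2, an RNA-binding protein, read WASH values of 7.09, 6.88 and 6.89 in CTRL and 7.77, 7.37 and 7.68 in Tg mice, and ELUTED values of 7.70, 6.86 and 7.20 in CTRL and 7.30, 6.91 and 7.20 in Tg mice. The genotypes did not overlap in WASH and did in ELUTED. Its tail ratio differed by -0.77 ± 0.20 as measured and -0.85 ± 0.19 scaled, and in total RNA the genotypes differed by 0.46. A second Rbms2 probe set, not above background on all arrays, read -0.12 as measured and 0.04 scaled. Pik3c2a, a class II phosphoinositide 3-kinase, read 0.65, -0.23 and 0.08 in CTRL and -0.62, -0.76 and -0.74 in Tg mice (-0.87 ± 0.24; -1.04 ± 0.22 scaled), with 0.61 in WASH and -0.26 in ELUTED. Lrrc3 had the smallest p of all genes with a value below 0 after scaling (-0.83 ± 0.17), with 0.57 in WASH and -0.10 in ELUTED.

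The other genes with the smallest p after scaling were Rtn4rl2, a Nogo receptor homologue, the neuronal splicing factor Nova1 and Bod1l. Nova1 read -0.70, -0.58 and 0.07 in CTRL and -0.96, -1.29 and -0.84 in Tg mice, so it lay toward short tails in both genotypes except in CTRL mouse 3. The difference was -0.63 ± 0.25 as measured and -1.02 ± 0.22 scaled (limma adjusted p = 0.30), and a second Nova1 probe set, not above background on all arrays, read 0.18. Bod1l differed by -0.70 ± 0.21 as measured and by -0.86 ± 0.20 scaled.

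Groups of neuronal and regulatory genes had medians a little below 0. Over all genes the Tg ratios lay wholly below the CTRL ratios for 7.36% as measured and 8.72% scaled, and 3.25% and 5.43% had a value below 0 with an unadjusted p under 0.05. Of 132 autism-associated genes 92 had a value below 0 (median -0.13; -0.07 scaled, with 77 below 0), and 18 lay wholly below. The median was below 0 in each fit as measured, and 0.01 scaled when ratios were centred. The median ratio of the group was 0.21, 0.05 and 0.31 in CTRL and 0.10, 0.04 and 0.03 in Tg mice, so that CTRL mouse 2 overlapped with the Tg mice. Besides Kcnq3, its members with the smallest p were the ciliary transcription factor Rfx3 (-0.54 ± 0.17), the histone chaperone subunit Ubn2 (-0.75 ± 0.25) and the sodium channel Scn1a. Scn1a read 0.68, -0.10 and 0.31 in CTRL and -0.36, -0.41 and -0.27 in Tg mice (-0.65 ± 0.23; -0.64 ± 0.19 scaled).

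Of 54 voltage-gated and potassium channel genes 30 had a value below 0 (median -0.10; -0.08 scaled, with 36 below 0), and 12 lay wholly below. The measured median was -0.24 over members above background on all 12 arrays, -0.22 with quantile normalization again, -0.21 without CTRL mouse 2 and -0.05 with centred ratios. Kcnh7 read 2.05, 0.79 and 1.59 in CTRL and 0.61, 0.51 and 0.03 in Tg mice (-1.10 ± 0.33; -0.72 ± 0.21 scaled). Hcn2, a pacemaker channel, read 1.13, -0.06 and 0.26 against -0.40, -0.40 and -0.32 (-0.82 ± 0.29; -0.78 ± 0.21 scaled). These channels therefore lay lower in all Tg mice, while 24 members of the group had a value above 0.

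Of 53 genes of the glutamatergic postsynapse 35 had a value below 0 (median -0.12; -0.08 scaled). The median was -0.22 without CTRL mouse 2 as measured, and 0.0028 scaled with centred ratios. The kainate receptor subunit Grik5 read 1.00, 0.17 and 0.49 in CTRL and -0.10, -0.26 and -0.21 in Tg mice (-0.75 ± 0.23; -0.67 ± 0.18 scaled). The scaffold Shank3 read 1.48, 0.46 and 1.27 against 0.69, 0.25 and 0.08, with overlap (-0.73 ± 0.30). The kinase subunit Camk2b had the other sign (0.61 ± 0.22). Of 65 chromatin regulators 42 had a value below 0 (median -0.10; -0.11 scaled; -0.19 as measured over members above background on all 12 arrays), among them the acetyl-lysine reader Brd3 (-0.61 ± 0.22) and the deacetylase Hdac9 (-0.50 ± 0.20). Presynaptic and synaptic vesicle genes were evenly split, with 27 of 54 on each side (median 0.01; 0.01 scaled). Among them the calcium sensor family member Syt4 read 0.77 ± 0.27 and the active-zone scaffold Bsn -0.66 ± 0.26. Without CTRL mouse 2, 7 autism-associated, 5 channel, 5 postsynaptic and 4 chromatin genes passed with a value below 0 as measured, against 1.25% of all genes (limma, adjusted p under 0.05). Scaled, 0 of them did, against 0.0167% of all genes. With mouse weights 21 autism-associated and 10 channel genes passed with a value below 0 as measured, against 4.98% of all genes, and 0.0251% of all genes did when scaled.

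A tail ratio can also change sides. For 40 probe sets (0.148%) the ratio was above 0 in all Tg mice and below 0 in all CTRL mice, and for 231 (0.855%) it was the reverse. Scaling cannot alter these counts because it keeps the sign of each ratio, but centring gave 109 and 142. Among genes above background, Nol11 was of the first kind, a nucleolar protein needed to make ribosomal RNA. Its ratio was -0.59, -0.18 and -0.46 in CTRL and 0.08, 0.11 and 0.06 in Tg mice (0.49 ± 0.18; limma adjusted p = 0.37). Of 2 other Nol11 probe sets, both not above background on all arrays, 1 read -0.03. Sars2, the mitochondrial seryl-tRNA synthetase, read -0.50, -0.13 and -0.24 against 0.05, 0.24 and 0.23 (0.46 ± 0.18). Ndrg2, abundant in astrocytes, read -1.92, -0.04 and -0.89 against 0.02, 0.06 and 0.14 (1.03 ± 0.41), with CTRL mouse 2 at the border. Tmem80 and the lipase Abhd6 differed by 0.47 ± 0.20 and 0.24 ± 0.17.

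Of the second kind, Rtn4rl2 read 0.94, 0.22 and 0.51 in CTRL and -0.16, -0.34 and -0.30 in Tg mice (-0.82 ± 0.22; limma adjusted p = 0.37). Phospho2, a phosphatase, read 0.19, 0.21 and 0.30 against -0.44, -0.22 and -0.23 (-0.53 ± 0.17), with 0.67 of difference in WASH and 0.14 in ELUTED. Its other 2 probe sets, not above background on all arrays, read 0.24 and 0.06. The kinase Cdk18 read 0.58, 0.15 and 0.42 against -0.23, -0.23 and -0.13 (-0.58 ± 0.18). The cofilin phosphatase Ssh3 and the smooth muscle myosin Myh11 differed by -0.59 ± 0.20 and -0.54 ± 0.17. A second Myh11 probe set, not above background on all arrays, read -0.01 as measured and 0.11 scaled. None of these genes passed as measured or scaled.

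**Figure D5:**
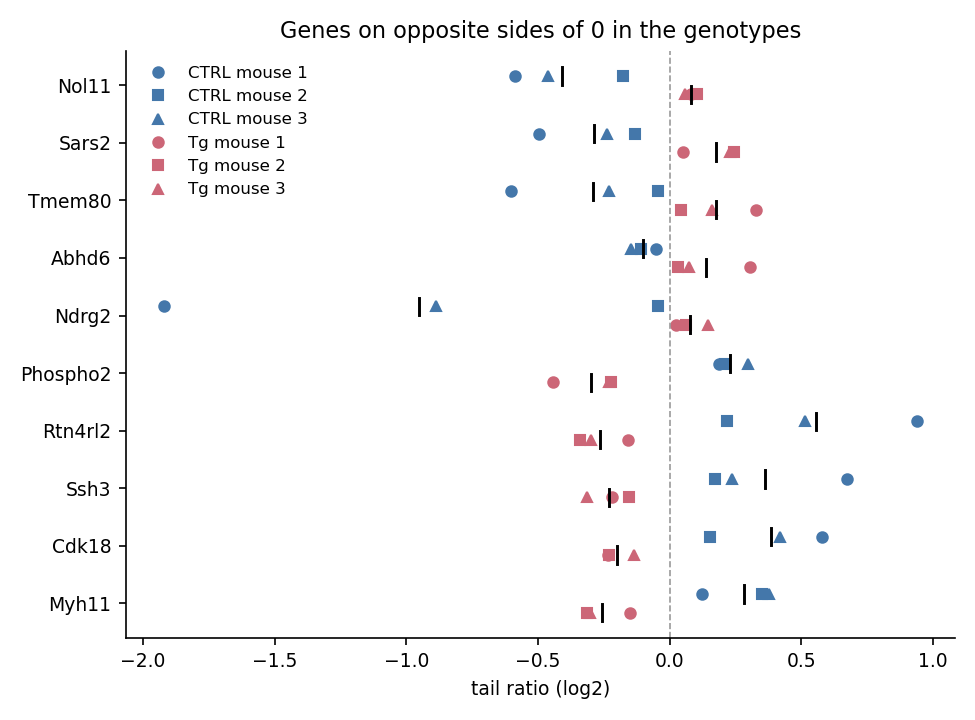
Tail ratio (horizontal axis, log2) of the 10 genes above background that lay furthest to opposite sides of 0 in the genotypes, 1 point per mouse, CTRL in blue and Tg in red, with the mean of each genotype as a black bar. The ratios of Ndrg2 reach furthest, from -1.92 in CTRL mouse 1 to -0.04 in CTRL mouse 2.

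For other genes the sign of the difference turned on scaling. Of the 7488 genes above background on all 12 arrays 924 went from above to below 0 and 716 from below to above. Nenf, the secreted protein neudesin, read -1.79, -1.47 and -1.59 in CTRL and -0.97, -1.16 and -0.96 in Tg mice, without overlap (0.59 ± 0.18). Scaled, the ratios were -1.07, -1.76 and -1.31 against -1.12, -1.32 and -1.75, and the difference was -0.02 ± 0.23. Atp5g1, subunit c of ATP synthase, went from 0.60 ± 0.21 to -0.07 ± 0.21, and the noncoding RNA Pantr1 from 0.67 ± 0.23 to -0.05 ± 0.20. In the other direction, the keratin Krt20 went from -0.47 ± 0.20 to 0.19 ± 0.20, the matrix protein Sned1 from -0.40 ± 0.17 to 0.04 ± 0.21 and the synaptic vesicle protein Syn3 from -0.40 ± 0.19 to 0.01 ± 0.18. These 6 genes were chosen for a small p as measured and a sign that turned. That their genotypes lay apart as measured and overlapped after scaling follows largely from this choice. Their scaled differences were no larger than their SE. A second Atp5g1 probe set read -0.08 as measured.

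The CPEB family itself gave no difference that passed. In total RNA, Cpeb4 read 8.44, 8.36 and 8.30 in CTRL and 8.58, 8.55 and 7.99 in Tg mice, and the sources used here do not say whether the transgene carries the sequence that these probes read. By the same probe set the tail ratio of Cpeb4 was -1.66, -0.60 and -0.68 in CTRL and -0.77, -1.06 and -0.77 in Tg mice. The genotypes overlapped, and the difference was 0.11 ± 0.29 (limma adjusted p = 0.86), or -0.42 ± 0.20 scaled (0.40). A second Cpeb4 probe set read -3.52, -1.42 and -1.35 in CTRL and -1.59, -1.63 and -0.22 in Tg mice (0.95 ± 0.61; 0.27 ± 0.36 scaled). The value of -3.52 rests on an ELUTED signal of 4.90, below background on that array.

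The brighter Cpeb3 probe set had a ratio above 0 in every mouse. It read 0.95, 0.54 and 0.77 in CTRL and 0.50, 0.47 and 0.06 in Tg mice, with all Tg mice below all CTRL mice (-0.41 ± 0.20, limma adjusted p = 0.39; -0.21 ± 0.18 scaled, 0.66). A second Cpeb3 probe set, also above background on all 12 arrays, read -0.83, -0.09 and 0.39 in CTRL and -0.15, -0.40 and 0.02 in Tg mice. There the genotypes overlapped, with a difference of 0.00 ± 0.31, so the Cpeb3 probe sets disagreed in the sign of the ratio. Cpeb1 differed by 0.19 ± 0.24 and the 2 tested probe sets of Cpeb2 by -0.12 ± 0.35 and 0.29 ± 0.32. On the ELUTED arrays Cpeb1 and both Cpeb4 probe sets stood above background in 2 of 3 CTRL mice, and both Cpeb2 probe sets in 1 of 3 CTRL and 1 of 3 Tg mice, so these ratios are not exact. One further probe set each of Cpeb2, Cpeb3 and Cpeb4 was too dim to be tested.

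Genes of the tail-length machinery were split, with 22 of 43 above 0 (median 0.02; -0.04 scaled). The deadenylase subunit Pan3 read -2.57, -0.83 and -0.93 in CTRL and -0.39, -0.47 and -0.22 in Tg mice (1.09 ± 0.42), and 0.53 without CTRL mouse 1. Cnot8, of another deadenylase, read -1.72, -0.30 and -1.48 against -0.42, -0.34 and -0.35, with overlap (0.80 ± 0.34), and 0.52 without CTRL mouse 1. Tob2, which recruits deadenylases, read -0.66 ± 0.24 with 0.56 in WASH and -0.10 in ELUTED. Of 16 mRNAs reported as CPEB targets 9 had a value above 0 (median 0.12; 0.01 scaled). Ctnnb1, beta-catenin, read -2.88, -0.44 and -1.06 in CTRL and -0.41, -0.41 and -0.04 in Tg mice (1.17 ± 0.54), and the modifier Sumo2 differed by 0.50 ± 0.21. Neither group thus stood far from the median over all genes.

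Markers of cell types were read beside these results, because the samples were whole tissue, in which fewer cells of a type and less RNA per cell cannot be told apart. Genes of inflammation and the interferon response stood higher in some Tg mice in both fractions. Their median genotype difference was 0.79 in ELUTED, 0.77 in WASH and 0.72 in total RNA. In WASH the level of the group ran from 6.88 to 7.09 in CTRL and from 7.03 to 9.52 in Tg mice, and in ELUTED from 6.98 to 7.27 and from 7.01 to 9.21. The lowest Tg mouse was thus at the level of the controls in each fraction. The tail ratio of the 22 tested genes differed by a median of -0.20 (-0.18 scaled; 15 below 0). Of these 22 genes 10 stood above background on all 12 arrays. Meningeal and fibroblast markers read 0.74 in both fractions, and their tail ratio -0.09 (-0.23 scaled; 14 of 18 below 0). Microglial markers read 0.55 in ELUTED and 0.42 in WASH, and their tail ratio 0.21 (-0.07 scaled; 12 of 18 above 0). For 1 of these genes, the complement component C1qb, the ratio was -2.30, -1.31 and -2.77 in CTRL and -0.46, -0.92 and -0.77 in Tg mice (1.41 ± 0.35). Laptm5 had the other sign (-0.35 ± 0.17).

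Of 26 astrocyte markers 18 had a value above 0 (median 0.21; 0.00 scaled, with 13 above 0), with the water channel Aqp4 at 0.50 ± 0.19 and Mlc1 at 0.79 ± 0.33. Atp1b2 had the other sign (-0.35). Oligodendrocyte markers had the largest median of the glial groups (0.51; 0.26 scaled; 18 of 22 above 0). Mobp, a myelin protein, read -1.05, 0.04 and -0.33 in CTRL and 0.28, 0.25 and 0.15 in Tg mice (0.67 ± 0.27; 0.58 ± 0.20 scaled), and Trf, transferrin, read 0.75 ± 0.31. Without CTRL mouse 1 the median of this group was 0.28, and without CTRL mouse 2 it was 0.67. Over members above background on all 12 arrays it was 0.28. Endothelial and mural markers read -0.06 (-0.20 scaled; 13 of 21 below 0), and choroid plexus and ependymal markers -0.35 (-0.31 scaled; 5 of 7 below 0). The part of cell composition in the tail ratio was not tested.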

How the data were processed

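The deposited values are log2 expression, 1 value per probe set and array, which the authors computed by RMA according to the labels. They range from 3.68 to 13.6. RNA was amplified before hybridisation, per the labels' protocols, and the precision is limited by 3 mice per genotype. The design text names another array than the probe names do, and the probe names were used. Probe sets with an 18-array mean above the 40th percentile (log2 5.95) were tested: 27022 of 45037. Of these, 19143 had 1 gene symbol, 411 several and 7468 none. A gene was read by its probe set with the highest mean.

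WASH was subtracted from ELUTED in each mouse, and the ratios were compared with limma 3.58.1 (R 4.3.3), adjusted over all tested probe sets by Benjamini-Hochberg. Scaling multiplied the ratios of a mouse by the mean SD over its own SD, without centring. Named genes were the 8 with the smallest p per direction and fit, 5 per direction with the genotypes on opposite sides of 0, 3 per direction whose sign turned, and up to 4 per gene group. The members and gene lists were chosen with earlier results of these data known. The sources used here do not say whether mice shared a litter, and p-values measure only the spread between these samples. The script was tested on simulated data. The alternatives were other filters, normalizations, scalings, weights, blocks and each mouse left out. The WASH and ELUTED arrays of a mouse are paired by the mouse number in the labels. The pairing was checked by correlating WASH with ELUTED, though not on full array values, which correlated at 0.84 or more. It gave -0.07, 0.16 and -0.02 in CTRL and 0.72, 0.33 and 0.43 in Tg mice. The control values thus gave little sign of the pairing, which rests on the labels there.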

Additional observations from a re-analysis of the deposited data

Results flagged for a closer look

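Counts and genes were singled out where every Tg mouse lay on one side of 0 and every CTRL mouse on the other. The difference between genotypes did not pass for any of the named genes in limma over all probe sets, with or without scaling, and the 2 counts were not tested. There were 40 probe sets (0.148% of 27022) with a ratio above 0 in every Tg mouse and below 0 in every CTRL mouse, and 231 (0.855%) of the reverse. The 2 counts depend on where 0 lies, and with the ratios of each mouse centred on their median they were 109 and 142. The genes named among the first were Nol11 (0.49), Sars2 (0.46), Tmem80 (0.47), Abhd6 (0.24) and Ndrg2 (1.03). Those among the second were Phospho2 (-0.53), Rtn4rl2 (-0.82), Ssh3 (-0.59), Cdk18 (-0.58) and Myh11 (-0.54).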

How the results depend on the processing

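With 3 mice per genotype and a background that differs between ELUTED arrays, dim genes have inexact ratios. Leaving out 1 mouse at a time gave 0 to 1958 probe sets that passed above 0 as measured and 0 to 529 below 0, and 0 to 48 and 0 to 4 when scaled. Mouse weights gave 2840 and 1769 as measured, and 1 and 3 scaled. All other alternatives gave 0 in each direction. The probe sets on opposite sides of 0 numbered 69 to 175 (Tg above) and 295 to 841 (Tg below) with 1 mouse left out. They numbered 374 (Tg below) without the filter, 83 (Tg above) with quantile normalization again, 109 and 142 with centred ratios, and 22 and 87 as genes by the mean of their probe sets. The SD difference stayed below 0 in each alternative run, from -0.48 to -0.18 with 1 mouse left out.

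Fits without the replicate block, with the mouse as a random block and with the mouse number as a block called 0 probe sets. At an unadjusted p under 0.05 they gave 1752 and 818, 2460 and 1286, and 3120 and 1312 as measured (above and below 0), and 414 and 749, 1404 and 1703, and 2270 and 1962 scaled. The ratios of same-numbered mice of the 2 genotypes correlated at 0.79, 0.92 and 0.74, against 0.61 to 0.92 over all pairs of mice. Whether the numbers pair the genotypes was not tested.

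Reversals were seen for differences of up to 0.29 as measured (second Cpeb2 probe set) and 0.27 scaled (second Cpeb4 probe set), and the cause was not tested. With mouse weights the measured difference was -0.0704 for Cpeb2 (second probe set, from 0.29), -0.49 for Cpeb3 (second probe set, from 0.00) and -0.15 for Cpeb4 (from 0.11), and the scaled one was -0.18 for Cpeb4 (second probe set), 0.055 for Nenf, 0.0585 for Pantr1, -0.0413 for Sned1 and -0.0743 for Syn3. With quantile normalization again the first Cpeb2 probe set read 0.0291 and the second Cpeb3 probe set -0.0518 as measured, and Cpeb1 0.13 scaled. With quantile normalization within each fraction the second Cpeb3 probe set read -0.0428 as measured, and Cpeb1 0.00175, the second Cpeb2 probe set 0.026, Sned1 -0.10 and Syn3 -0.10 scaled. Centred and scaled, Atp5g1 read 0.0165, Cpeb1 0.0824, the second Cpeb2 probe set 0.0273, Nenf 0.0659 and Pantr1 0.0312. Without the filter the scaled values were 0.0141 for Cpeb1, 0.0282 for Nenf, 0.00595 for Pantr1 and -0.0206 for Syn3, and with equal MAD 0.00953 for Cpeb1, 0.00527 for Nenf and -0.00275 for Syn3. With 1 mouse left out, the measured difference ran from -0.0186 to 0.40 for Cpeb1, -0.55 to 0.12 for the first Cpeb2 probe set, -0.33 to 0.29 for the second of Cpeb3 and -0.23 to 0.30 for the first of Cpeb4. The scaled one ran from -0.28 to 0.21 for Cpeb1, -0.30 to 0.20, -0.26 to 0.10 and -0.23 to 0.53 for the second probe sets of Cpeb2, Cpeb3 and Cpeb4, -0.23 to 0.11 for Atp5g1, -0.21 to 0.17 for Nenf, -0.15 to 0.11 for Pantr1, -0.12 to 0.21 for Sned1 and -0.14 to 0.11 for Syn3. The first Cpeb3 probe set did not reverse (-0.52 to -0.27 as measured, -0.30 to -0.06 scaled), nor did the first of Cpeb4 scaled (-0.57 to -0.31).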

Other observations

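Neuronal identity genes gave small medians, with members on both sides of 0. Differences between the groups were not tested. Of 23 cortical excitatory neuron markers 16 had a tail ratio difference above 0 (median 0.18; 0.13 scaled). The transcription factor Tbr1 read -2.30, -0.35 and -1.07 in CTRL and -0.32, -0.27 and 0.12 in Tg mice (1.09 ± 0.44; limma adjusted p = 0.37), and Rasgrf2, an activator of Ras, had the other sign (-0.63 ± 0.22). Of 30 genes listed as markers of striatal medium spiny neurons 14 were above 0 (median -0.05; -0.08 scaled). The opioid precursor Penk read 0.59 ± 0.24, whereas Rgs9, the striatal G protein regulator, read -0.71 ± 0.26. Of 23 inhibitory interneuron markers 15 were above 0 (median 0.13; 0.02 scaled). The neuropeptides Npy and Sst read 0.94 ± 0.28 and 0.37 ± 0.17, the calcium buffer Pvalb 0.62 ± 0.26 and the receptor Erbb4 -0.73 ± 0.24. None of these genes passed the test.

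Activity-regulated genes were also mixed, with 16 of 35 above 0 (median -0.05; -0.08 scaled). The kinase Plk2 read -2.11, -1.18 and -1.57 in CTRL and -0.82, -0.98 and -0.49 in Tg mice (0.86 ± 0.27), and Rgs2 read 0.81 ± 0.25. The nuclear receptor Nr4a3 read 1.51, 0.59 and 1.07 against 0.44, 0.28 and 0.33 (-0.71 ± 0.24), and the activin subunit Inhba -0.56 ± 0.21. All 4 had ratios closer to 0 in Tg mice. Of 15 nuclear long noncoding RNAs 8 were above 0 (median 0.11; 0.20 scaled). Snhg8, from whose introns a small nucleolar RNA is made, read 1.66 ± 0.54, and Meg3 read -0.39 ± 0.20. Of 12 replication-dependent histone genes, whose mRNAs end in a stem-loop in place of a poly(A) tail, 7 were above 0 (median 0.11; -0.04 scaled). H3c1 read 0.20 ± 0.19 and H3c14 -0.56 ± 0.36. Genes listed as markers of other brain regions had a median of -0.14 (-0.06 scaled; 7 of 15 above 0), and 8 of the 15 stood above background on all 12 arrays.

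Of 5 blood genes 3 were above 0 (median 0.71; 0.30 scaled). The beta-globin Hbb-b2 read -2.84, -0.96 and -2.89 in CTRL and -0.57, -0.71 and -0.65 in Tg mice (1.59 ± 0.47), and the alpha-globins Hba-a1 and Hba-a2 read 1.03 ± 0.36 and 0.71 ± 0.26. In these 3 genes every Tg mouse lay above every CTRL mouse as measured, and after scaling the genotypes overlapped.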
